A study of Mus musculus with 2 samples.

Results

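Transcripts of the Ms4a6 and Ms4a7 genes, of Cd33 and of further genes linked to the risk of Alzheimer's disease were compared between CD47 KO and WT white matter. The list held 9 genes, chosen by name with earlier results of these data known: Ms4a6b, Ms4a6c, Ms4a6d, Ms4a7, Cd33, Abi3, Bin1, Picalm and Sorl1. All probe sets whose platform annotation gave 1 of these symbols were taken. This yielded 18 probe sets for 8 of the 9 genes, out of 45037 probe sets and 18193 named genes in all. Picalm had no probe set under its symbol in the annotation used, and it was not analysed here. All 8 genes with probe sets exceeded, in both arrays, the low-signal floor defined with the ratios.

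The white matter was optic nerve together with optic tract, dissected from male mice. The CD47 KO mice (labelled CD47 null) were null for CD47, the ligand of the inhibitory receptor SIRPα on microglia, and were 12 to 15 weeks old. The WT mice (labelled wild-type) were 13 to 15 weeks old. RNA of several mice was pooled for each genotype and put on 1 Affymetrix array. The genotypes could therefore not be tested against each other, and the array values below have no replicate check on these arrays. The labels disagree on the size of the pools: the CD47 KO pool held 4 mice by the design text and 5 by the labelling protocol, and the WT pool held 5 by the design text and 4 by the protocol. Since each pool is a single measurement of whole tissue, a difference in the number of cells of a type cannot be told apart from a difference in RNA per cell.

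The MS4A genes encode small proteins that span the membrane several times, and many of them lie side by side in a cluster that, in human genetic studies, holds variants linked to Alzheimer's disease. In mice Ms4a6b, Ms4a6c, Ms4a6d and Ms4a7 are known from cells of the myeloid lineage. CD33 is a sialic acid-binding receptor of the Siglec family that dampens phagocyte activation in human myeloid cells, and ABI3 is an adaptor linked to the WAVE complex, which drives the branching of actin. BIN1 bends membranes and has a neuronal and a ubiquitous form, PICALM helps to assemble clathrin coats, and SORL1 sorts the amyloid precursor protein (APP) between endosomes and the Golgi apparatus. These last genes are expressed in neurons, glia and other cells, whereas the first 6 are, in brain, mainly genes of microglia and other macrophages.

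The windows upstream of the Ms4a members are shown because these paralogues lie in 1 cluster and yet differed in their ratios. Windows were found for 6 of the 9 genes (8 windows in all) in the RefSeq table of the GRCm38.p6 assembly. None was found for Ms4a6d, so the windows leave out this Ms4a member. Each printed window holds the 250 bases before a transcription start, 5′ to 3′ on the strand of the gene. The window of Ms4a7 (the start furthest upstream of its 2 windows) is chr19:11336147-11336396 on the minus strand, that of Ms4a6c is chr19:11469118-11469367 on the plus strand, and that of Ms4a6b is chr19:11518309-11518558 on the plus strand. Capitals mark the longest run of letters that the windows of Ms4a6c and Ms4a6b share.
Ms4a7: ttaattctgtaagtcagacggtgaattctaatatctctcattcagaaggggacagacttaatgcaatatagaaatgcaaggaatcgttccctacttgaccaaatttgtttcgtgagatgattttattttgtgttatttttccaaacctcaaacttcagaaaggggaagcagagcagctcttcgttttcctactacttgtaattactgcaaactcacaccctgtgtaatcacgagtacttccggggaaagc
Ms4a6c: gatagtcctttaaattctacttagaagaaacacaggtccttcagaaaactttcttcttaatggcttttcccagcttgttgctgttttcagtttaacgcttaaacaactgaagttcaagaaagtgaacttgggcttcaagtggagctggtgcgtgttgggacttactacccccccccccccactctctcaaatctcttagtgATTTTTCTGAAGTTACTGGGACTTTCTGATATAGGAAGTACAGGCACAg
Ms4a6b: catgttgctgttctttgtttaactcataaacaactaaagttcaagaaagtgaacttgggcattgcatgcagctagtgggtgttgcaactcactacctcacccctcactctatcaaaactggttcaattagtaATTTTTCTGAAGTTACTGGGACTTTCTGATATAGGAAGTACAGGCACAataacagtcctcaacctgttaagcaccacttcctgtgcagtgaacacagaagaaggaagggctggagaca

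The shared run of Ms4a6c and Ms4a6b was 48 bases long. It lay 49 to 2 bases before the annotated start of Ms4a6c, but 118 to 71 bases before that of Ms4a6b. The window of Ms4a7 shared no run longer than 9 bases with that of Ms4a6c and 7 bases with that of Ms4a6b. The letters GAGGAA (either strand), 1 form of the sites bound by the myeloid factor PU.1, were in none of the printed windows. They were in 23.3% of all 32851 windows. The longer GAGGAAGT, which contains GAGGAA, was in 2.44% of all windows and in none of the members' windows. The same held for the TATA box letters TATAAA, which were in 12.4% of all windows. The Cd33 window held GAGGAA once, 226 to 221 bases before its start, and the Picalm window held it 2 times. These are matches of letters and not measured binding. Other forms of the PU.1 site were not searched, and the shorter letters GGAA are in each printed window.

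Of the 8 member genes, Ms4a7 and Ms4a6d were over 2-fold higher in CD47 KO white matter and none was over 2-fold lower. Among the 12473 genes measured (at or above the floor on 1 array or both), the share past 2-fold was 1.21% upwards and 0.818% downwards. These shares depended on the floor, and were 7.07% upwards and 7.94% downwards over 18193 genes with none, 1.52% and 1.24% for a floor at the 40th percentile, and 1.02% and 0.507% at the 60th. Ms4a6c was also over 1.5-fold higher, which made 3 of 8 member genes at this threshold, against 4.02% of all genes; none was over 1.5-fold lower, against 4.68% of all genes. The remaining 5 genes, Cd33, Ms4a6b, Sorl1, Bin1 and Abi3, had log2 ratios between -0.18 and 0.27. The median log2 ratio was 0.24 over the members and -0.02 over all genes, of which 46.8% were above 0. The ratio is that of CD47 KO over WT of the MAS5 signal, a scaled linear intensity, after signals under a floor of 106.4 (the median of all signals of both arrays) had been set to it. The brightest probe set stood for each gene.

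Ms4a7, the member with the highest ratio, had a signal of 565 in CD47 KO and 260 in WT, 2.17-fold higher (log2 ratio 1.12). Of all genes, 0.94% had a higher ratio. Its other probe set lay under the floor on both arrays, with 29.5 in CD47 KO and 23.1 in WT, and gave no ratio. In mice Ms4a7 is known as a marker of macrophages at the borders of the brain and of microglia that respond to damage.

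Ms4a6d had 3 probe sets. The brightest, whose suffix (_s_at) marks probes that can match more than 1 transcript, had 822 in CD47 KO and 383 in WT, 2.15-fold higher (log2 ratio 1.10). The next, without this mark, had 451 in CD47 KO and 238 in WT, 1.90-fold higher (log2 ratio 0.92). Both probe sets were higher in CD47 KO, but only the marked one passed 2-fold, so that 1 member in place of 2 was over 2-fold without marked probe sets. The dimmest lay under the floor, with 22.0 in CD47 KO and 1.70 in WT.

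Ms4a6c had a signal of 796 in CD47 KO and 530.0 in WT (log2 ratio 0.59), just past 1.5-fold. Its second probe set was under the floor on both arrays (48.4 in CD47 KO, 43.9 in WT). Ms4a6b, with which it shares the run of upstream letters printed above, had 522 in CD47 KO and 462 in WT by its brighter probe set (log2 ratio 0.18). The dimmer one went the other way, with 114 in CD47 KO and 160 in WT (log2 ratio -0.49), and its CD47 KO signal was close to the floor. The direction of Ms4a6b depended on the probe set, and the median over both was -0.16.

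**Figure D1:**
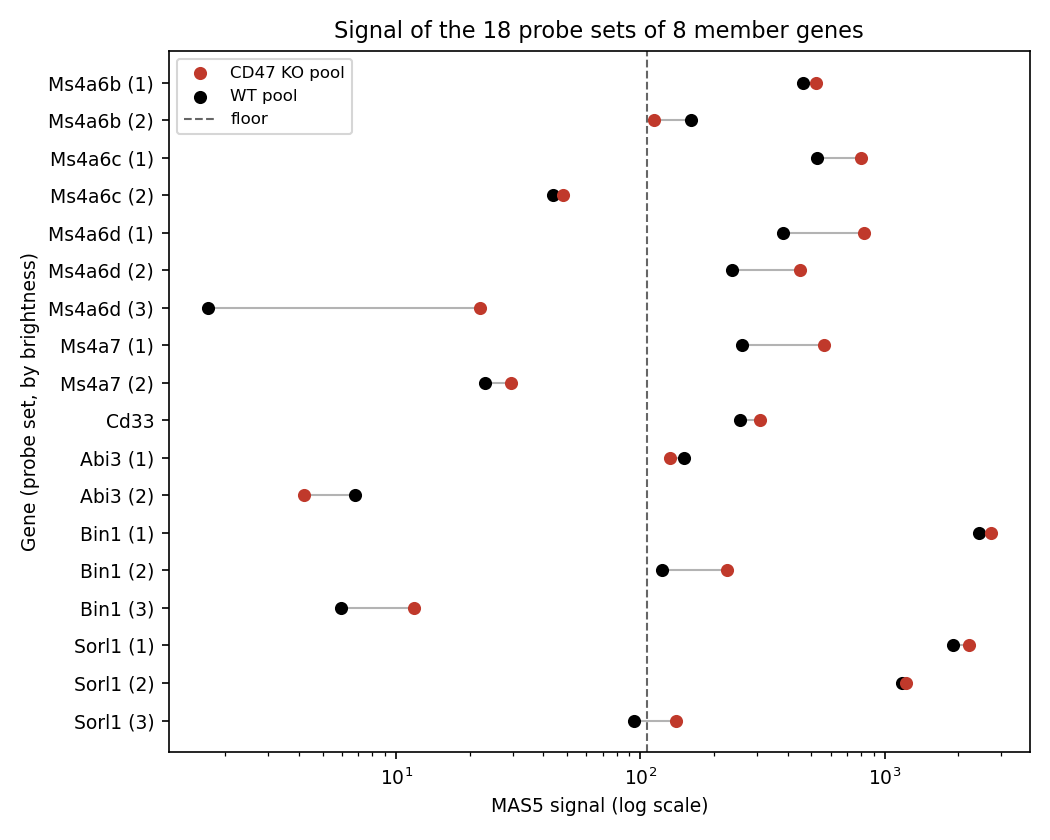
Signal on a log scale (MAS5) for 18 probe sets of the 8 member genes, numbered by brightness within a gene, with 1 point for the CD47 KO pool (red) and 1 for the WT pool (black); a dashed line marks the floor of 106.4. The widest gaps to the right of the floor are those of Ms4a7, the brighter pair of Ms4a6d and the second probe set of Bin1, and 5 probe sets lie left of the floor with both points.

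Cd33 had a single probe set, with a signal of 308 in CD47 KO and 256 in WT, 1.20-fold higher (log2 ratio 0.27). Of all genes, 14.2% had a higher ratio. Abi3 was the single member whose brightest probe set was lower in CD47 KO, with 133 in CD47 KO and 150 in WT (log2 ratio -0.18). Both signals were near the floor, and the other probe set of Abi3 was far below it (4.19 in CD47 KO, 6.77 in WT). With the floor at the 60th percentile, a signal of 187, Abi3 was no longer measured.

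Bin1 had 2711 in CD47 KO and 2423 in WT by its brightest probe set, 1.12-fold higher (log2 ratio 0.16). A second probe set gave 225 in CD47 KO and 123 in WT (log2 ratio 0.87), and the dimmest was under the floor with 11.9 in CD47 KO and 5.95 in WT. The size of the Bin1 ratio depended on the probe set, and the median over both that were measured was 0.52.

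Sorl1 had 2215 in CD47 KO and 1903 in WT by its brightest probe set, 1.16-fold higher (log2 ratio 0.22). The next gave 1217 in CD47 KO and 1177 in WT (log2 ratio 0.05). The dimmest gave 140 in CD47 KO and 94.5 in WT, where it was under the floor, so that it was at least 1.32-fold higher. All 3 probe sets of Sorl1 were higher in CD47 KO, the brighter ones only slightly.

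Ordered by their log2 ratios, the members ran Ms4a7, Ms4a6d, Ms4a6c, Cd33, Sorl1, Ms4a6b, Bin1 and Abi3. The sole repeat measurement on these arrays was that of different probe sets of 1 gene: over 7457 pairs in 4740 genes the difference in log2 ratio had an SD of 0.35, and its size stayed below 0.71 in 95% of pairs. No step between neighbours in this order was larger than that 95% limit. Ms4a7 was 0.94 above Ms4a6b and 0.85 above Cd33 on the log2 scale, and Ms4a6d 0.92 above Ms4a6b, each past the limit. These pairs were picked after the members had been ordered, whereas the limit holds for 1 pair at a time, so passing it is no test. The limit covers neither the differences between mice nor those between hybridisations.

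The 6 microglial members had a median log2 ratio of 0.43 and ranged from -0.18 to 1.12, whereas the 2 measured widely expressed members, Bin1 and Sorl1, had a median of 0.19. The difference of 0.24 was smaller than the SD between probe sets of 1 gene. Under the alternatives tried it lay between 0.06 and 0.40. By probe sets, 6 of the 8 measured in the microglial group were above 0 on the log2 scale, and 5 of 5 in the widely expressed group. These are repeated probe sets of 6 and 2 genes. Of all genes, 46.8% were above 0, and the share over all probe sets was not computed. By genes, the microglial group held both the highest ratios and the single gene with a ratio below 0.

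In the chromosomal order of GRCm38.p6 the cluster held 21 Ms4a genes. Of these, 17 had a probe set named here and 7 were measured. Of the measured genes 4 were over 1.5-fold higher, against 4.02% of all genes. These were Ms4a7, Ms4a4b, Ms4a6c and Ms4a6d, 3 of them members, which lie in 1 stretch from Ms4a7 to Ms4a6d together with Ms4a4a (no probe set named here), Ms4a4c, Ms4a6b, Ms4a4d (under the floor) and Gm8369. Since the members were chosen with earlier results of these data known, this count and this stretch are descriptions and test nothing. Ms4a4b, known from T cells in mice, had 180 in CD47 KO and 115 in WT (log2 ratio 0.64), with the WT signal close to the floor. Ms4a4c had 187 in CD47 KO and 180 in WT (log2 ratio 0.05). At the other end, Ms4a15 had 255 in CD47 KO and 260 in WT (log2 ratio -0.03). Ms4a1, which encodes the B cell protein CD20, Ms4a2, a chain of the IgE receptor of mast cells, and Ms4a3, known from granulocyte precursors, were under the floor in both arrays. Among the 5 genes on each side of the cluster and 1 gene within it that is not named Ms4a, 4 were measured, Tmem109, Prpf19, Ccdc86 and Mrpl16, with log2 ratios from -0.19 to -0.07.

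**Figure D2:**
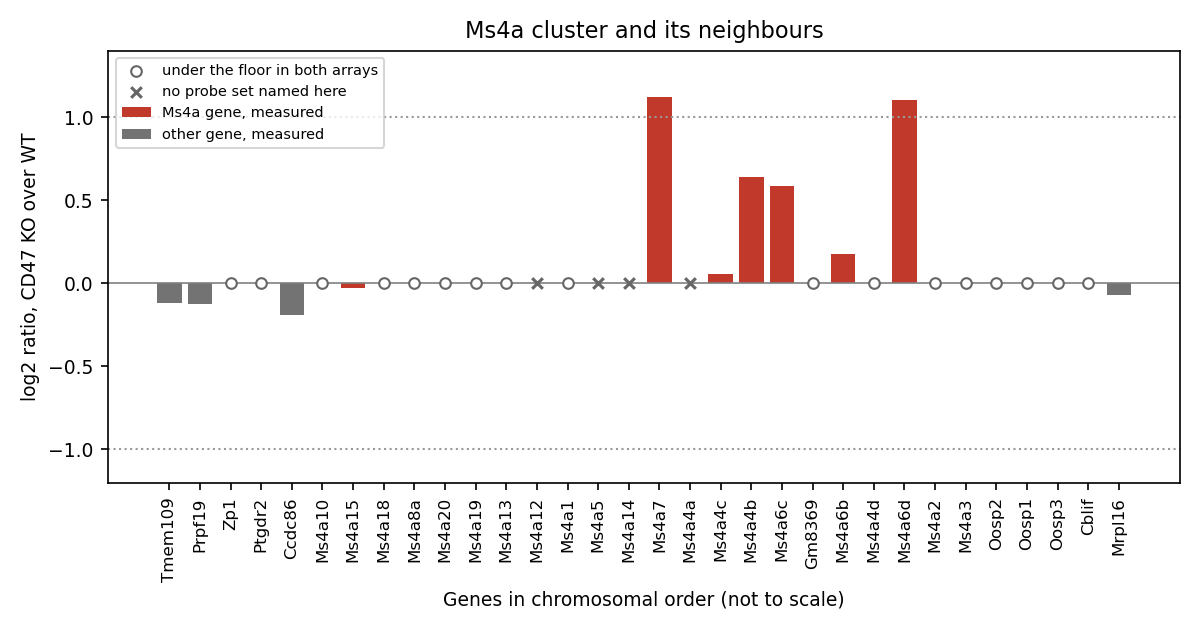
Log2 ratio of CD47 KO over WT (vertical; dotted lines at 2-fold) of the Ms4a genes (red bars) and other genes (grey bars) in chromosomal order, not to scale; open circles mark genes under the floor in both arrays and crosses genes with no probe set named here. Ms4a7 (1.12) and Ms4a6d (1.10) stand above the upper dotted line, and the 4 measured genes outside the family lie slightly below 0.

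Of the 17 other genes listed for the MS4A family, 5 were measured. Above 0 were 4 of them, against 46.8% of all genes, and none was over 2-fold. The median log2 ratio of those measured was 0.44. Besides Ms4a4b the largest ratios were those of the structurally related Tmem176a, with 3641 in CD47 KO and 2072 in WT (1.76-fold higher), and Tmem176b, with 5722 in CD47 KO and 4206 in WT (1.36-fold higher). Both lie on chromosome 6, away from the cluster on chromosome 19.

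Genes beside Cd33 in function, the other Siglecs and the phosphatases that such receptors recruit, were above 0 for 6 of 7 measured genes, with a median of 0.36 and 1 over 2-fold higher, against 46.8% above 0 and 1.21% over 2-fold higher among all genes. Siglecf had 276 in CD47 KO and 43.9 in WT, under the floor, and was at least 2.59-fold higher. Cd22, a Siglec of B cells and of microglia, had 315 in CD47 KO and 194 in WT (1.62-fold higher), and Inpp5d, the lipid phosphatase SHIP1, 585 in CD47 KO and 440 in WT (1.33-fold higher). The phosphatase genes Ptpn6 (SHP-1) and Ptpn11 (SHP-2) had log2 ratios of -0.01 and 0.05. Siglec1, Siglece and Siglecg were under the floor in both arrays.

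The WAVE complex, to which ABI3 is linked, showed no common direction. Its list had 4 of 10 measured genes above 0, against 46.8% of all genes, and a median of -0.02. Nckap1l, the subunit of haematopoietic cells, had 1144 in CD47 KO and 572 in WT (just past 2-fold), and Rac2, the Rac GTPase of those cells, had 308 in CD47 KO and 181 in WT (1.70-fold higher). Cyfip2, a subunit abundant in neurons, had 1471 in CD47 KO and 2467 in WT (log2 ratio -0.75). The paralogues of Abi3 were nearly equal in both pools, Abi1 with 3043 in CD47 KO and 3023 in WT and Abi2 with 3123 in CD47 KO and 3124 in WT.

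Genes of clathrin-mediated endocytosis, the partners of BIN1 and PICALM, were above 0 for 12 of 24 measured genes (46.8% of all genes were). Their median was -0.02, and 1 was over 2-fold lower, against 0.818% of all genes. This was Dnm1, the dynamin of synapses, with 345 in CD47 KO and 707 in WT (log2 ratio -1.04). Snap91, the neuronal relative of Picalm, had 1067 in CD47 KO and 1623 in WT (log2 ratio -0.61), and Ap2a1, an adaptor subunit, 314 in CD47 KO and 475 in WT (log2 ratio -0.60). The partners of SORL1 were taken as other VPS10 receptors, retromer and the processing of APP. They were above 0 for 10 of 17 measured genes, against 46.8% of all genes, with a median of 0.05. Sorcs3, a neuronal receptor of this family, was 2.08-fold lower, with 113 in CD47 KO and 236 in WT. Snx5 was 1.59-fold higher, with 4884 in CD47 KO and 3069 in WT, and Sorcs1 was 1.46-fold higher, with 299 in CD47 KO and 205 in WT. App itself had 26860 in CD47 KO and 25827 in WT (log2 ratio 0.06).

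Markers of neurons were lower in CD47 KO along with Dnm1, Snap91, Cyfip2 and Sorcs3. They were below 0 for 9 of 10 genes, whereas 46.8% of all genes were above 0. The neuron markers had a median of -0.99 and a summed signal of 10121 in CD47 KO and 17998 in WT. Over 2-fold lower were 5 of them, against 0.818% of all genes. These were Nefm (162 in CD47 KO, 406 in WT), Slc17a6 (247 in CD47 KO, 601 in WT), Gad1 (1346 in CD47 KO, 2918 in WT), Gad2 (422 in CD47 KO, 902 in WT) and Rbfox3 (341 in CD47 KO, 682 in WT). Their part in the ratios of the endocytic genes was not tested.

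Over 45 genes linked to the risk of Alzheimer's disease, the members included, 39 were measured. Of these, 29 were above 0 (46.8% of all genes were), 5 were over 2-fold higher (1.21% of all genes) and none was over 2-fold lower (0.818% of all genes). The lists were drawn up with earlier results of these data known, so these shares describe them and test nothing. The 14 measured genes listed as mainly microglial beside the members had a median of 0.41, close to the 0.43 of the microglial members, and 3 were over 2-fold higher. Whole tissue does not show which cells a transcript came from, so this listing could not be checked here. Trem2, a lipid receptor of microglia, had 2795 in CD47 KO and 436 in WT (6.40-fold higher), Blnk, an adaptor of immune receptor signalling, had 1372 in CD47 KO and 496 in WT (2.77-fold higher), and Nckap1l is given above. For Trem2 the paper also reported a significant increase by quantitative PCR in several mice per genotype. That PCR covered none of the members. Apoe, named here outside the rule for its place among risk genes, had 34626 in CD47 KO and 25957 in WT (1.33-fold higher). Plcg2, Rin3 and Ptk2b were slightly below 0. The 17 measured genes listed for other or wide expression had a median of 0.03, with none over 2-fold. In this list Slc24a4 had 241 in CD47 KO and 130 in WT (1.86-fold higher), Ace 123 in CD47 KO and 214 in WT (log2 ratio -0.80) and Cnn2 841 in CD47 KO and 1241 in WT (log2 ratio -0.56). These 2 lists share genes with those of the partners.

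**Figure D3:**
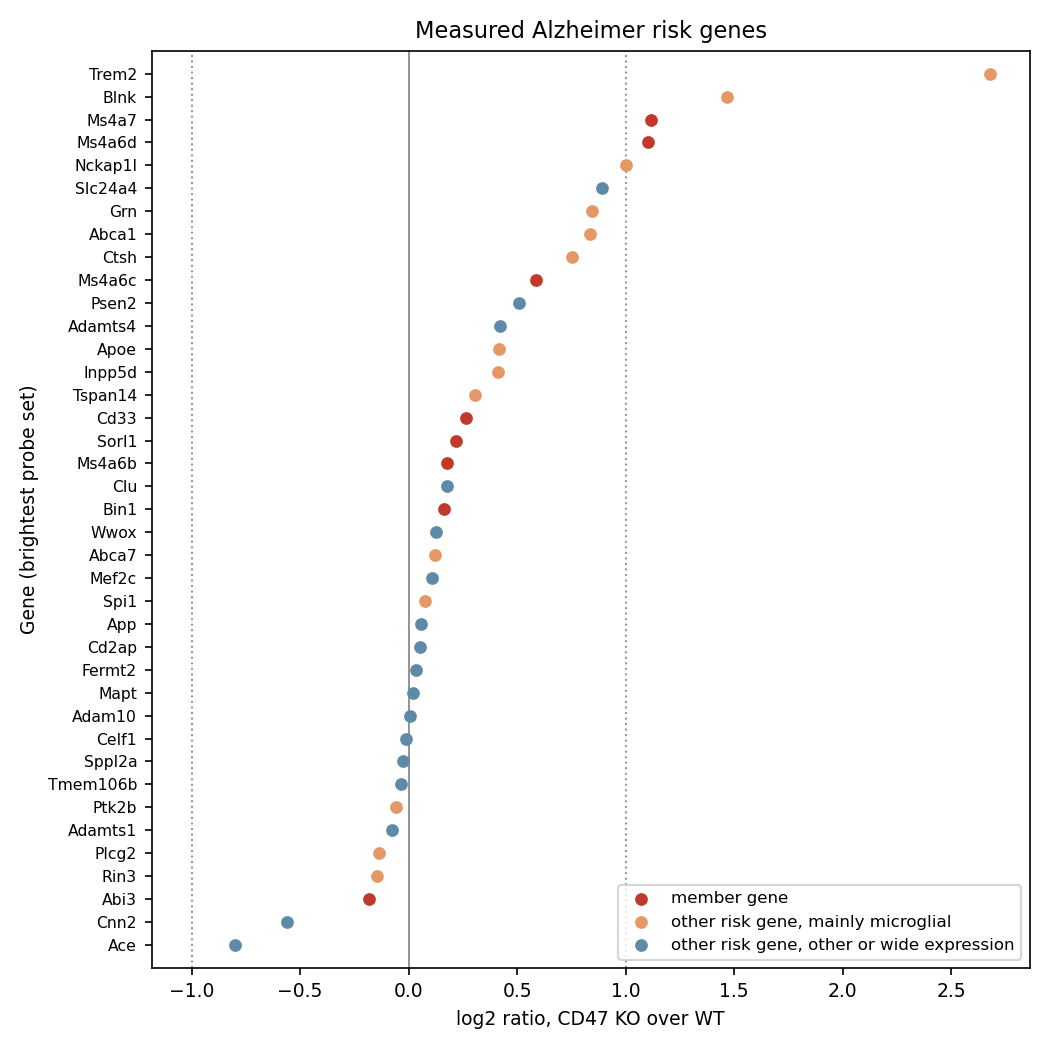
Horizontal axis, log2 of the CD47 KO over the WT signal, with dotted lines at 2-fold, of the 39 measured risk genes, ordered by ratio, for the members (red), other genes listed as mainly microglial (orange) and genes listed for other or wide expression (blue). Trem2 (2.68) and Blnk (1.47) lie above Ms4a7 (1.12) and Ms4a6d (1.10), and Abi3 (-0.18) is the lowest member.

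Markers of macrophages and blood cells were measured beside the members. The microglia markers were above 0 for 11 of 14 genes (46.8% of all genes were), with a median of 0.50. Over 2-fold higher were 3 of them (Fcrls, Cx3cr1 and C1qa), against 1.21% of all genes. The markers ranged from -0.52 to 2.55 on the log2 scale. Their summed signal was 56010 in CD47 KO and 34599 in WT. Fcrls, an Fc receptor-like gene of microglia, had 3255 in CD47 KO and 556 in WT, Cx3cr1, the fractalkine receptor, 2180 in CD47 KO and 856 in WT, and C1qa, a complement chain, 16886 in CD47 KO and 7428 in WT. Below 0 were Tmem119 (842 in CD47 KO, 1205 in WT), P2ry12 (1442 in CD47 KO, 1586 in WT) and Sall1 (1471 in CD47 KO, 1705 in WT), whereas other genes of resting microglia in the list, such as Gpr34 (1603 in CD47 KO, 879 in WT) and Olfml3 (1606 in CD47 KO, 1114 in WT), were above 0. The log2 ratio of a member less the median of these markers was 0.62 for Ms4a7, 0.61 for Ms4a6d, 0.09 for Ms4a6c, -0.23 for Cd33, -0.32 for Ms4a6b and -0.68 for Abi3. Each of these members lay within the range of the markers. That range also spans the lower to the upper quartile of all genes (-0.191 to 0.146), so lying within it does not set the members apart. Fcrls, Cx3cr1 and C1qa had higher ratios than Ms4a7. The part of the microglia markers in the members' ratios was not tested. The markers of perivascular and border macrophages, the cells for which Ms4a7 is a known marker, were below 0 for all 7 measured genes. Of all genes, 46.8% were above 0. These macrophage markers had a median of -0.33 and a summed signal of 3827 in CD47 KO and 4913 in WT. Among them Cd163 had 314 in CD47 KO and 500 in WT, Pf4 had 726 in CD47 KO and 1045 in WT, and Cbr2 had 426 in CD47 KO and 553 in WT. Ms4a7 and these markers had ratios of opposite sign. The part of border macrophages in the ratio of Ms4a7 was not tested.

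The monocyte and granulocyte list was above 0 for 5 of 6 measured genes (46.8% of all genes were), with a median of 0.34 and none over 2-fold. Its summed signal was 3954 in CD47 KO and 3383 in WT. Those above 0 were S100a8, S100a9, Ngp, Ltf and Camp. Plac8 was below 0, with 251 in CD47 KO and 314 in WT (log2 ratio -0.32). The largest ratios were those of Ngp (1.63-fold higher), Ltf (1.48-fold higher) and Camp (1.37-fold higher). Ccr2, which defines inflammatory monocytes, stayed below the floor in CD47 KO and in WT. The part of these cells in the ratios of the Ms4a genes was not tested. Of the B cell list 3 of 6 genes with a probe set were measured, and the defining genes Cd79a, Cd79b and Ms4a1 were under the floor in both arrays; the others were Cd22, Jchain (1.19-fold higher) and Pax5 (1.01-fold higher). The summed signal of this list was 715 in CD47 KO and 592 in WT.

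**Figure D4:**
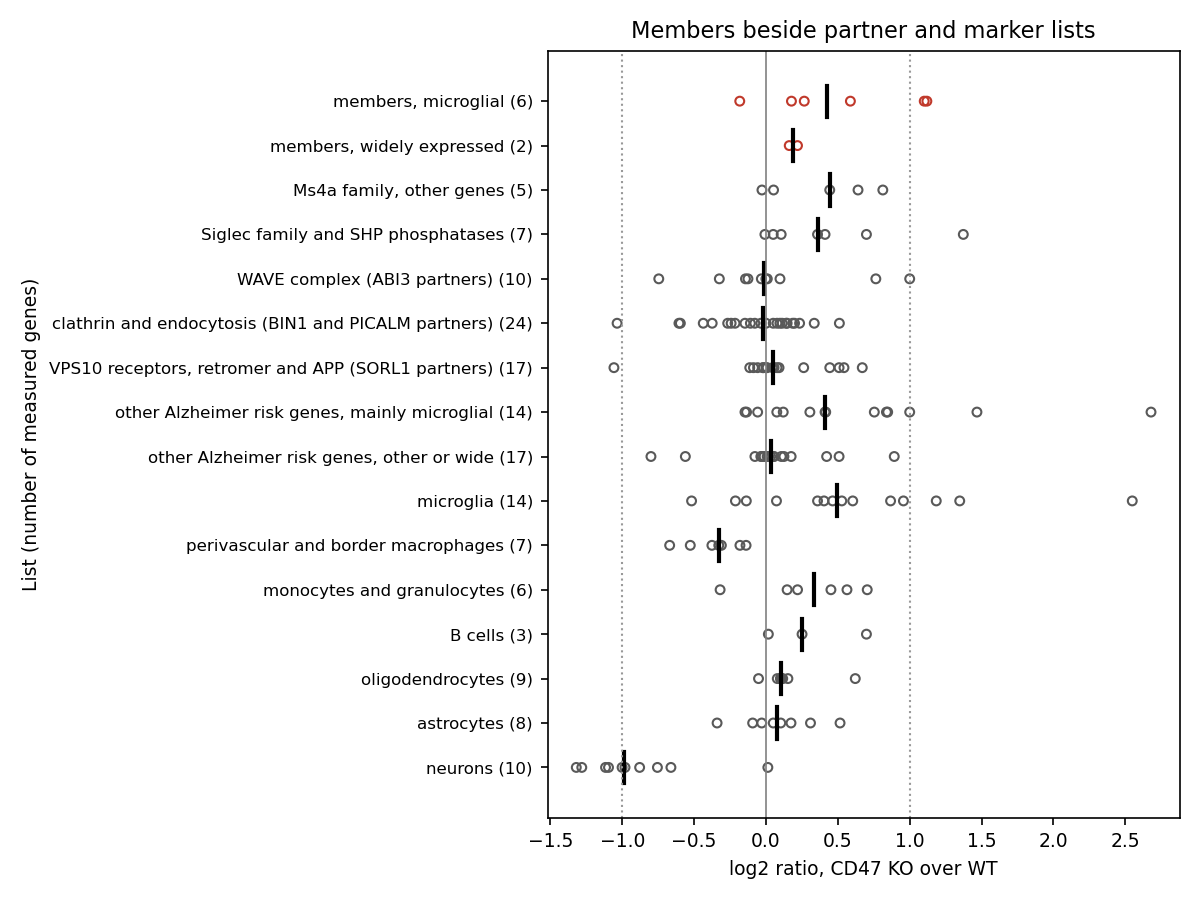
Horizontal axis, log2 of the CD47 KO over the WT signal, with dotted lines at 2-fold, for the measured members (red circles) and the measured genes of 14 lists of partners and cell type markers (grey circles), with the number of genes in brackets and the median of each row as a black bar. The microglial members (median 0.43) lie near the microglia markers (0.50), and the border macrophage (-0.33) and neuron (-0.99) markers lie left of 0.

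Markers of oligodendrocytes and astrocytes differed little by their medians between the pools, whereas those of neurons summed to 10121 in CD47 KO and 17998 in WT. Whether both dissections took the same tissue was not tested. The 9 measured oligodendrocyte markers had a median of 0.11 (Opalin 1.54-fold, Mobp 1.11-fold and Mal 1.08-fold higher), and the astrocyte markers had a median of 0.08 over 8 (Gfap 1.43-fold and Aqp4 1.24-fold higher, and Gjb6 with a log2 ratio of -0.34). The targeted gene Cd47 had 1346 in CD47 KO and 3928 in WT by its brightest probe set (2.92-fold lower), and the other 3 probe sets that reached the floor in WT were lower in CD47 KO as well. The position of these probe sets relative to the disrupted part of Cd47 was not examined.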

How the data were processed

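Total RNA of optic nerve and optic tract was pooled within each genotype, labelled from the 3′ end and hybridised to 1 array per genotype. Per the study's methods, a service provider ran the arrays; the submitters' processing notes name MAS5, without a version that the sources used here state. The deposited table holds, for every probe set, a linear MAS5 intensity, with each array scaled to a common target: the trimmed mean (2% left out at each end) was 500.003 on both. The median signal was 105 in CD47 KO and 107.8 in WT, and 22360 probe sets were above the floor in CD47 KO and 22628 in WT.

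Of 45101 probe sets, 64 controls were set aside. Platform annotation gave 34945 probe sets 1 symbol, 932 several and 9160 none; 34741 of the first were matched by gene identifier to RefSeq (GRCm38.p6). Signals under the 50th percentile of both arrays together (106.4) were set to it before log2 ratios were taken, so a ratio is a bound where 1 array lies under it. The floor shortens ratios of dim genes. For each gene the probe set with the highest mean log2 signal was used. No detection calls were used. The steps were tested on simulated arrays, with known folds put into genes above the floor in both. This checks the calculation and not the reliability of 1 array per genotype. Precision is limited by the number of arrays.

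The members and the 14 lists were chosen with earlier results of these data known. Named genes were all members, of each list the 3 largest absolute log2 ratios and all genes over 2-fold where these were 5 or fewer, and Cd47. Other genes named outside this rule, after their values were seen, were Apoe, App, Abi1, Abi2, Ptpn6, Ptpn11, Plcg2, Rin3, Ptk2b, Tmem119, P2ry12, Sall1, Gpr34, Olfml3, Ms4a4c, Ms4a15, the neighbours of the cluster and genes under the floor. S100a8, S100a9 and Plac8 were likewise named outside the rule. With 2 arrays no likeness of pattern between genes was computed. Alternatives were floors at the 40th and 60th percentile or none, quantile, median and loess normalisation (fraction 0.4), probe sets without cross-hybridisation marks, and 2 other gene summaries. Python 3.11.15, numpy 2.4.6, pandas 2.3.3 and statsmodels 0.14.6 were used.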

Additional observations from a re-analysis of the deposited data

How the results depend on the processing

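Of 71 values of single member genes under 9 alternatives, 70 moved by less than the SD between probe sets of 1 gene (0.35 on the log2 scale). The exception was Bin1, whose log2 ratio was 0.52 by the median over its measured probe sets. Many of the 71 values could not move, so their number says little about robustness. A floor leaves the ratio of a probe set above it unchanged. The probe set with the highest WT signal was the brightest one for each member, and leaving out marked probe sets changed only Ms4a6d. Ms4a7 ranged from 1.12 to 1.16, Ms4a6d from 0.92 to 1.14, Ms4a6c from 0.59 to 0.63 and Cd33 from 0.27 to 0.30. Ms4a6b was below 0 (-0.16) when its measured probe sets were summarised by their median, and above 0 under the other 8 alternatives. Without probe sets ending in _x_at or _s_at, 1 member was over 2-fold higher in place of 2, and no alternative put a member over 2-fold lower. The counts over all genes depend on the floor. With no floor 1287 genes were over 2-fold higher and 1445 lower, and the genes over 2-fold lower numbered 173 for a floor at the 40th percentile and 55 for one at the 60th, against 151 higher and 102 lower in the values reported. Those floors changed the number of genes measured (18193 with none, 13958 and 10838, against 12473). The cause of the differences between probe sets was not tested. No replicate could be left out with 1 array per genotype. No paired analysis was possible because each genotype has 1 array. Abi3, near the floor, had no value with the floor at the 60th percentile.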
